A study of Mus musculus with 12 samples.

Results

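The respiratory chain subunits of the inner mitochondrial membrane were examined in mouse liver. Members were matched by gene symbol, under a rule set with earlier results of these data known. It took symbols starting Nduf followed by a, b, c, s or v (complex I), Sdha to Sdhd (complex II) and symbols starting Uqcr (complex III). It also took symbols starting Cox4 to Cox8 followed by a, b, c or i (complex IV) and Atp5 (complex V, the ATP synthase). The rule found 89 members among 16703 genes measured in whole liver and 88 among 16273 genes in liver sinusoidal endothelial cells (LSEC), the cells that line the liver's capillaries. Cox8b was the member measured in liver and not in LSEC. Complex I held 44 members, complex II 4, complex III 8, complex IV 16 (15 in LSEC) and complex V 17.

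RNA was sequenced from 4 groups of C57BL/6 mice with 3 libraries each: whole liver on chow, whole liver with diet-induced nonalcoholic steatohepatitis (NASH), LSEC on chow and LSEC with NASH. The labels name no genotype other than the strain and give no age, and a protocol of 36 weeks on a NASH diet is attached to every sample, chow included. LSEC came from non-parenchymal liver cells that were depleted of CD11b+ cells and then collected with beads against CD146, a surface protein that other endothelial and perivascular cells can also carry. The series title concerns the signatures of diet-induced NASH and their regulation by the secreted liver protein Tsukushi, and the comparison here is NASH against chow in each tissue.

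The chain moves electrons from NADH (complex I) and succinate (complex II) through coenzyme Q, complex III and cytochrome c to oxygen at complex IV, and the proton gradient it builds drives the ATP synthase. Most subunits are encoded in the nucleus and imported, while a few catalytic ones are encoded in mitochondrial DNA, so a working complex needs both genomes. Hepatocytes are rich in mitochondria and use the chain to reoxidize the cofactors made in fatty acid oxidation, whereas sinusoidal endothelium is regarded as a more glycolytic cell type.

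The rule also takes genes that are not structural subunits or belong elsewhere. The 7 Ndufaf genes encode assembly factors of complex I. Ndufa4 was first placed in complex I and is now counted as a complex IV subunit, and Ndufa4l2 is its paralog. Cox7a2l encodes a supercomplex factor, Ndufab1 the mitochondrial acyl carrier protein, and Atp5s and Atp5sl (listed as Dmac2 in GENCODE) proteins related to coupling or assembly. Cyc1 and the ATP synthase inhibitor Atpif1 fall outside the rule and are described with the other pathway genes. In 5 members at least 50% of the 50-base windows of the transcript also occur in other annotated transcripts, namely Atp5g2 (100%), Atp5l (84.8%), Cox7c (53.0%), Atp5h (50.5%) and Atp5o (50.3%), so their read counts are uncertain.

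Between 47000197 and 57397720 reads were recovered from each liver library and between 18527017 and 19402863 from each LSEC library. These totals, and the shares and total-read scaling built on them, count reads of the measured genes only. Of 13 subunits encoded in mitochondrial DNA, 8 were among the measured genes in LSEC and none in liver. Levels below are the deposited normalized reads (reads divided by 1 factor per library), and a call is an adjusted p under 0.05 from limma on log2(normalized reads + 1) with Benjamini-Hochberg adjustment over all genes of the tissue. Fold changes are log2 values of NASH over chow on that scale, with their standard error (SE), and for genes with few reads they depend on the 1 added before the log. Nothing in the labels states that replicates came from separate animals, so the p-values reflect how these samples vary, which may be technical. The deposited scaling bears on every direction given here. Setting each library to the same total reads instead raised the median gene's fold change by 0.401 in liver and by 0.135 in LSEC, and for liver the counts over all members and the medians by complex are given under both scalings.

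In NASH liver the chain's messages were broadly lower on the deposited scale. Of 89 members, 59 fell, 5 rose and 25 did not pass the test, and the median fold change was -0.39. Over all liver genes 21.0% fell and 25.0% rose, with a median of 0.02. The estimate was negative for 83 members, and in 61 members all NASH libraries lay below all chow libraries, against 27.3% of all genes. Among genes whose mean reached 1000 normalized reads, 41.5% fell, and 55 of the 74 members at that level fell, with a median of -0.40 against -0.21 for all such genes.

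Scaling by total reads gave a different picture. On that scale 12 members rose and 3 fell, the median member changed by 0.03, and over all genes 47.2% rose and 5.41% fell, with a median of 0.43. The 3 members lower on both scales were Ndufs7 (-0.39 by total reads), Atp5sl (-0.35) and Cox6b2 (-0.99). All 5 members that rose on the deposited scale also rose by total reads, where Cox7a2l (0.28), Ndufa10 (0.24), Ndufaf5 (0.58), Ndufaf7 (0.40), Ndufv3 (0.23), Sdha (0.22) and Sdhc (0.23) joined them. None of those 7 had been called lower, and the other 56 of the 59 members that fell were not called by total reads. The sign of 47 members turned from negative to positive. Each fall in the paragraphs on the complexes is on the deposited scale, and of the members named there it was called on both scales for Ndufs7, Atp5sl and Cox6b2 only. On either scale the median member lay below the median gene of the tissue.

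The summed member reads show the same split. In chow livers the sums were 782780, 795805 and 721127 normalized reads, and in NASH livers 645730, 573754 and 524936, so every NASH liver lay below every chow liver. As a share of the library's reads, members took 1.28%, 1.28% and 1.23% in chow and 1.39%, 1.21% and 1.23% in NASH (95% Wilson intervals at most 0.00646 points wide, covering counting error only). The shares overlapped, with NASH liver 1 the highest of the 6.

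**Figure D1:**
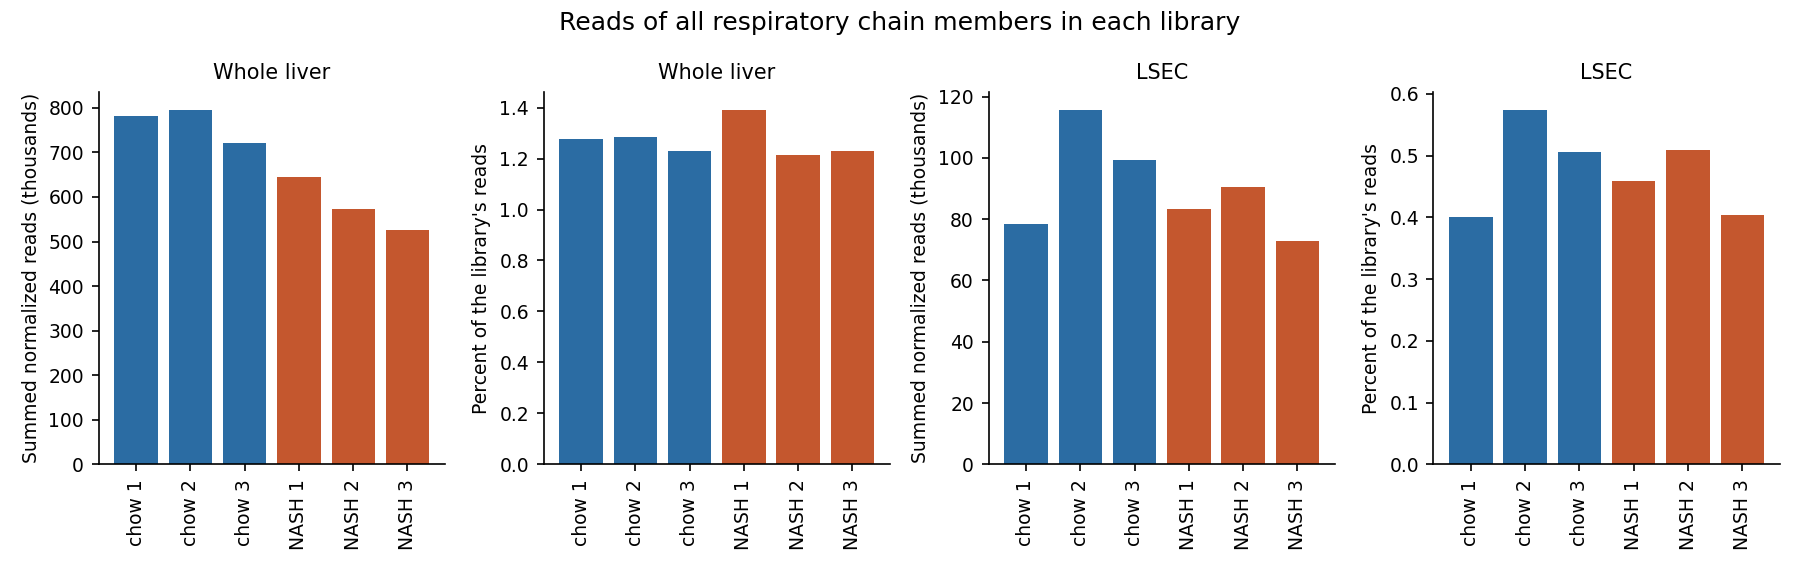
Bars give the reads of all respiratory chain members in each library, as summed normalized reads (axis in units of 1000) and as percent of the library's reads, for whole liver (left pair) and LSEC (right pair), with chow in blue and NASH in orange. In liver the normalized sums of the NASH libraries (524936 to 645730) all lie below those of chow (721127 to 795805), while the shares overlap between 1.21% and 1.39%.

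Whole liver is a mixture, and fewer cells of a type and less RNA per cell cannot be told apart in it. Of 10 hepatocyte markers 7 fell and none rose, with a median of -1.08, and by total reads 7 also fell, with a median of -0.66. Their summed level was 6852850 to 7337960 normalized reads in chow livers and 3151880 to 3642900 in NASH livers. Markers of recruited macrophages (10 of 10), cholangiocytes (8 of 8), stellate cells and myofibroblasts (8 of 10) and T, NK and B cells (6 of 10) rose, with medians of 3.42, 2.6, 1.46 and 1.06. Of 10 resident Kupffer cell markers 6 rose and 2 fell, and of 10 sinusoidal endothelial markers 1 rose and 5 fell. The part of this shift in the members' values was not tested.

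NASH liver 1 stood above the other NASH livers for most members. Among 85 members whose mean reached 50 normalized reads it was the highest NASH library for 80, by a median of 0.23 on the log2 scale over the group's median library, and chow liver 3 was the lowest chow library for 76. The count of members lower in NASH was 73 without NASH liver 1, 65 without chow liver 3, 46 without NASH liver 2, 39 without chow liver 1, 35 without NASH liver 3 and 33 without chow liver 2. In all 6 of these fits 31 of the 59 members kept their call. The count of members higher was 2 without NASH liver 1, 3 without NASH liver 3 or chow liver 2, and 4 or 5 otherwise, and Cox6a2 and Ndufa4l2 kept theirs in all 6 fits.

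**Figure D2:**
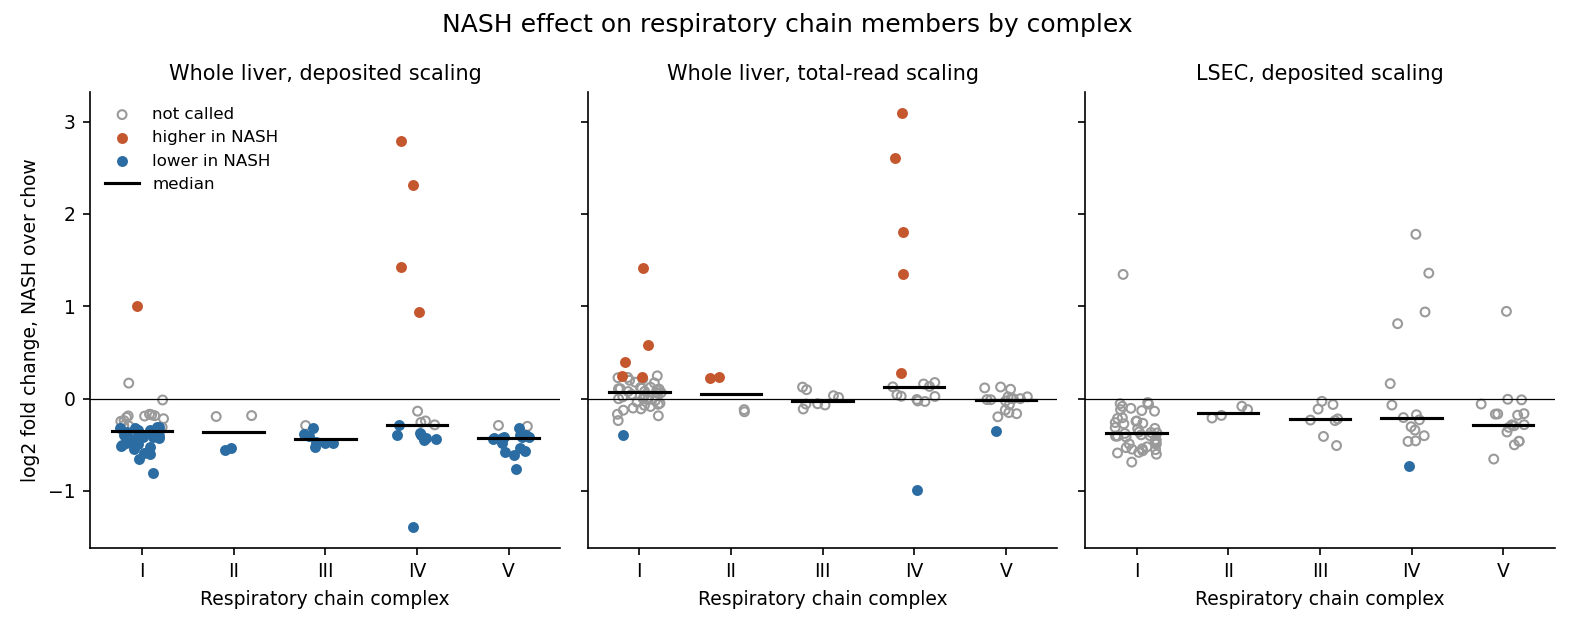
Each point is 1 member, placed by complex (horizontal axis) and by its log2 fold change of NASH over chow (vertical axis), in liver under the deposited scaling, in liver scaled by total reads, and in LSEC. Filled points passed the test (orange higher, blue lower) and black bars are medians, which lie between -0.44 and -0.29 in the liver panel and between -0.02 and 0.13 by total reads.

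Complex I, the NADH dehydrogenase, had 27 of 44 members lower and 1 higher in NASH liver, with a median of -0.35 (0.07 by total reads). The 7 core subunits carry the flavin and iron-sulfur centres that pass electrons to coenzyme Q, and 6 of them fell, with a median of -0.44 (-0.02 by total reads). Ndufs7, which holds the last iron-sulfur cluster before the quinone site (mm10 chr10:80249121-80256794), had 5606, 5871 and 4944 normalized reads in chow livers and 3546, 2878 and 2961 in NASH livers. Its groups did not overlap, and it fell by 0.81 on the log2 scale (SE 0.11, adjusted p = 0.000268), the lowest fold change in the complex. Ndufs3, another subunit of the quinone module, went from 5591, 5771 and 5168 to 4156, 3866 and 3457 and fell by 0.53 (adjusted p = 0.00145), or -0.11 by total reads (not called). The flavin subunit Ndufv1 fell by 0.42 (0.00 by total reads) and its partner Ndufv2 by 0.47 (-0.05 by total reads). Ndufs8 was the core subunit that did not pass (-0.22, adjusted p = 0.115). Ndufs1 lost its call without chow liver 1, chow liver 2, NASH liver 1 or NASH liver 3 (adjusted p up to 0.0907), and the other 5 core calls held without each library.

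The 30 accessory members surround that core, and 20 fell and 1 rose, with a median of -0.34 (0.07 by total reads). Ndufb9, a membrane-arm subunit of the LYR protein family, had 12884, 13362 and 12028 normalized reads in chow and 9587, 7820 and 7081 in NASH livers, with no overlap. It fell by 0.65 (SE 0.12, adjusted p = 0.00147), or -0.24 by total reads. The membrane-arm subunits Ndufb11, Ndufb10 and Ndufb5 fell by 0.60, 0.54 and 0.50 and the matrix-arm subunit Ndufa5 by 0.59, calls that held without each library. The acyl carrier protein gene Ndufab1 fell by 0.52 (adjusted p = 0.0065). At the other end Ndufa10 (-0.18), Ndufa3 (-0.19), Ndufv3 (-0.19) and Ndufa13 (-0.20) did not pass. Only Ndufaf4 (-0.48, adjusted p = 0.0137) fell among the 7 assembly factors, and it lost its call without NASH liver 3 or chow liver 1 (adjusted p up to 0.0582). The median of these factors was -0.19, and Ndufaf5 was at 0.17 and Ndufaf7 at -0.02.

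Complex II, the succinate dehydrogenase shared with the citric acid cycle, was divided between its members, with 2 of 4 lower and a median of -0.37 (0.05 by total reads). The membrane anchor Sdhd had 14370, 14858 and 14508 normalized reads in chow and 11030, 9814 and 8940 in NASH livers, and it fell by 0.56 (SE 0.10, adjusted p = 0.00125). The iron-sulfur subunit Sdhb fell by 0.54 (adjusted p = 0.00279). The flavoprotein Sdha, where succinate is oxidized, and the other anchor Sdhc were at -0.19 and -0.18 (adjusted p = 0.136 and 0.114). For Sdha the values were 29803, 29222 and 28325 in chow and 25724, 27418 and 23340 in NASH, groups that did not overlap although the difference did not pass. By total reads Sdhd was at -0.14 and Sdhb at -0.12, while Sdha and Sdhc were called higher.

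In complex III, which passes electrons from coenzyme Q to cytochrome c, 7 of 8 members fell, with a median of -0.44 (-0.02 by total reads). Uqcrfs1, the Rieske iron-sulfur protein, had 14730, 15217 and 14502 normalized reads in chow and 11115, 10653 and 9128 in NASH livers. The groups did not overlap, and it fell by 0.53 (SE 0.10, adjusted p = 0.00172), or -0.11 by total reads (not called). The core protein Uqcrc1 fell by 0.49 and the hinge protein Uqcrh by 0.48, and these calls, with Uqcrb (-0.38), held without each library. The others that fell were Uqcr10 (-0.47), Uqcr11 (-0.40) and the second core protein Uqcrc2 (-0.32), which lost their calls without chow liver 2 or NASH liver 3, and Uqcr11 and Uqcrc2 also without chow liver 1 (adjusted p up to 0.0575, 0.0866 and 0.105). Uqcr11 lost its call without NASH liver 2 as well. Uqcrq, a small subunit bound to cytochrome b, was at -0.29 (adjusted p = 0.0692).

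Complex V, which makes ATP, had 15 of 17 members lower and none higher, with a median of -0.43 (-0.01 by total reads). Atp5b encodes the catalytic beta subunit and had the highest level per length of the members compared, with a chow mean of 45842 normalized reads per kb of transcript. It had 89767, 90066 and 83666 normalized reads in chow and 72219, 66353 and 59590 in NASH livers and fell by 0.41 (SE 0.13, adjusted p = 0.0239), against 0.0016 by total reads. That call was lost without chow liver 1 or chow liver 2 (adjusted p up to 0.10). The alpha subunit Atp5a1 fell by 0.44 (-0.03 by total reads) and lost its call without chow liver 2 (adjusted p = 0.0645), whereas the rotor stalk subunit Atp5c1 (-0.42) and the delta subunit Atp5d (-0.43) kept theirs.

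The peripheral stalk holds the catalytic head of the ATP synthase still, and its subunits Atp5h, Atp5o, Atp5f1 and Atp5j fell by 0.61, 0.58, 0.43 and 0.40, with the limit on shared sequence given above for the first pair. By total reads they were at -0.20, -0.16, -0.01 and 0.02. Atp5g1, Atp5g2 and Atp5g3 encode the same mature c subunit of the proton ring behind different import signals, and they fell by 0.54, 0.32 and 0.57. Atp5g3 had 28535, 30205 and 26385 normalized reads in chow and 21175, 18818 and 17511 in NASH livers, and was at -0.15 by total reads. Atp5g2 lost its call without NASH liver 3 or chow liver 2 (adjusted p up to 0.0944) and was at 0.10 by total reads. Atp5sl had 1973, 2113 and 2324 normalized reads in chow and 1413, 1143 and 1221 in NASH livers and fell by 0.77 (SE 0.11, adjusted p = 0.000388), the lowest of the complex on both scales. The small subunits Atp5e (-0.30, adjusted p = 0.0725) and Atp5k (-0.29, adjusted p = 0.103) did not pass.

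Complex IV, the cytochrome c oxidase, held 4 of the 5 members that rose. These 4 were 25% of its 16 members, the same share as among all liver genes (25.0%). Of its 16 members 8 fell (50%, against 21.0% of all liver genes), with a median of -0.29 (0.13 by total reads). Several of its nuclear subunits come as isoform pairs, with a form found in most tissues and a form found mainly in muscle, lung or testis. On the deposited scale the forms had opposite signs in the Cox4i, Cox6a, Cox7a and Cox8 pairs, while both Cox6b forms were negative. By total reads signs were opposite for Cox7a1 (1.35) and Cox7a2 (-0.03) and for Cox6b2 (-0.99) and Cox6b1 (0.17). In the Cox4i, Cox6a and Cox8 pairs both forms were then positive. The common forms were abundant. Cox4i1 had 22323, 22383 and 20414 normalized reads in chow and 19130, 15808 and 15459 in NASH livers and fell by 0.38 (adjusted p = 0.0174, 0.04 by total reads), a call lost without NASH liver 3, chow liver 1 or chow liver 2 (adjusted p up to 0.0748). Cox7a2 fell by 0.45 (adjusted p = 0.00926, -0.03 by total reads). Cox6a1 went from 15481, 15398 and 13679 to 13707, 11802 and 11048, with groups that overlapped at 1 library, and fell by 0.29 (adjusted p = 0.0465, 0.13 by total reads), a call lost with edgeR (0.0635), with centring on the median gene (0.0570) and without NASH liver 2, NASH liver 3, chow liver 1 or chow liver 2 (up to 0.154). Cox8a (-0.28, adjusted p = 0.0565) and Cox6b1 (-0.24, adjusted p = 0.0942) did not pass.

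The rarer forms rose from a few reads. Cox4i2, the lung and oxygen-responsive partner of Cox4i1, had 3.56, 0 and 10.3 normalized reads in chow and 34.9, 24.1 and 17.7 in NASH livers, 13 and 84 reads in all, with no overlap between groups. It rose by 2.79 (SE 0.77, adjusted p = 0.0147), and without NASH liver 1 its adjusted p was 0.0728. Cox6a2, the heart and muscle partner of Cox6a1, had 2.37, 0 and 4.10 in chow and 9.18, 14.1 and 12.9 in NASH (6 and 40 reads) and rose by 2.32 (SE 0.63, adjusted p = 0.0134). Every NASH liver was above every chow liver for both genes. The sizes depend on the number added before the log. With 10 and 0.1 added, Cox4i2 rose by 1.32 and 3.99 and Cox6a2 by 0.87 and 3.56, and edgeR gave 2.42 and 2.41.

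Cox7a1, the heart and muscle partner of Cox7a2, had 36.8, 35.6 and 50.2 normalized reads in chow and 109, 57.3 and 77.2 in NASH livers and rose by 0.94 (SE 0.29, adjusted p = 0.0249). Cox8b, the muscle and brown fat partner of Cox8a, had 9.49, 3.24 and 7.18 in chow and 18.4, 17.1 and 19.3 in NASH (18 and 61 reads) and rose by 1.43 (SE 0.43, adjusted p = 0.0212). Neither gene's groups overlapped, but the calls were less stable. The call of Cox7a1 was lost without NASH liver 1, NASH liver 3, chow liver 1 or chow liver 2 (adjusted p from 0.0661 to 0.0967). For Cox8b it was lost without NASH liver 1, NASH liver 3 or chow liver 2 (0.0555 to 0.0778) and with DESeq2 (0.0612). With 10 added before the log Cox8b rose by 0.78.

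Cox6b2, known as the testis partner of Cox6b1, went the other way. It had 45.1, 34.5 and 49.2 normalized reads in chow and 11.0, 15.1 and 22.5 in NASH livers and fell by 1.39 (SE 0.34, adjusted p = 0.00837), the lowest fold change of all members, and the call held without each library. Ndufa4l2, the hypoxia-inducible paralog of Ndufa4, rose by 1.00 (SE 0.21, adjusted p = 0.00387) from 70.0, 62.6 and 66.7 to 162, 111 and 134. Ndufa4 itself had 18379, 18442 and 17253 in chow and 16946, 13816 and 12807 in NASH and fell by 0.32 (adjusted p = 0.0418, 0.10 by total reads), a call lost with edgeR (0.0576) and without any library other than NASH liver 1 (up to 0.131).

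**Figure D3:**
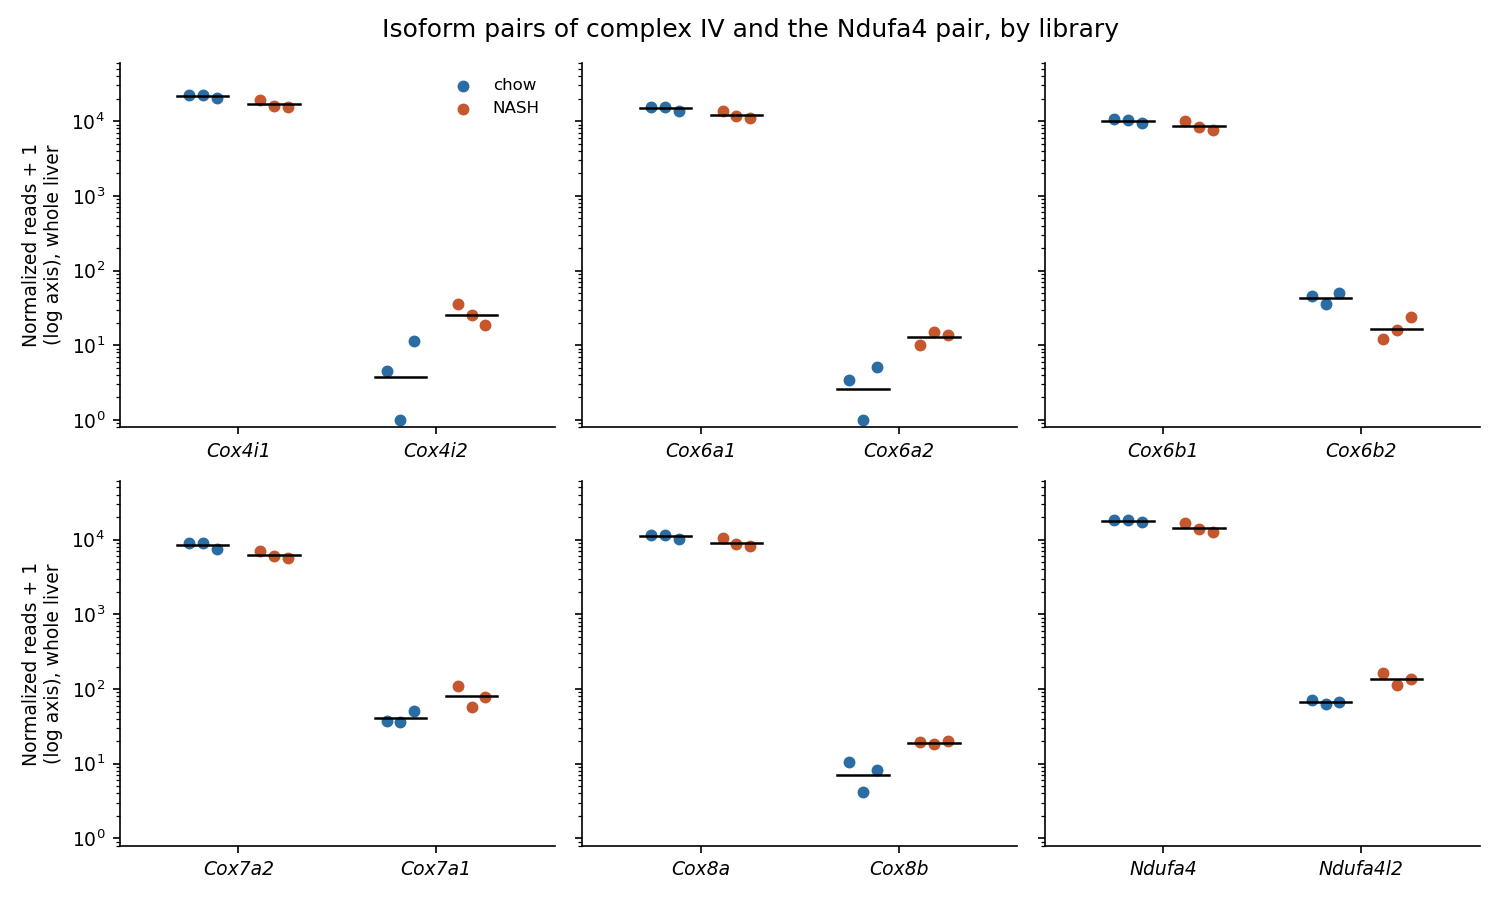
Points are normalized reads + 1 in each whole liver library on a log axis, for 5 complex IV isoform pairs and the Ndufa4 pair, with chow in blue and NASH in orange and bars at the mean of the log values. Cox4i2 (17.7 to 34.9 in NASH against 0 to 10.3 in chow), Cox6a2, Cox7a1, Cox8b and Ndufa4l2 lie higher in every NASH library, and Cox6b2 lies lower in every NASH library (11.0 to 22.5 against 34.5 to 49.2).

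Muscle genes were measured beside the muscle isoforms. Of 9 striated muscle markers 4 were measured in liver, and 2 rose and 1 fell. Acta1 had no read in any chow liver and 81.7, 5.03 and 7.24 normalized reads in NASH livers, and Actc1 had 4.75, 5.40 and 3.08 in chow and 15.6, 16.1 and 24.9 in NASH. Both rose, Tnnt3 was at 1.53 (adjusted p = 0.0636) and Tnnt2 fell by 1.69. Their summed level was 21.5 to 49.8 normalized reads in chow and 27.1 to 107 in NASH livers, and Myh6, Myh7, Ckm, Mb and Myl2 were not among the measured genes. The part of other cell types in the rise of the isoforms was not tested.

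Promoter sequences of complex IV isoforms are shown because the paired forms had unlike fold changes. They come from the RefSeq promoter table (GRCm38.p6), which had an entry for 74 of the 89 members, and each is printed 5′ to 3′ on the gene's strand, up to the base before the annotated gene. Capitals mark letters that match GCGCATGC (the NRF1 site) or CCAAT, read on either strand (ATTGG is CCAAT on the opposite strand).
Cox7a1 (chr7:30183921-30184143, plus strand): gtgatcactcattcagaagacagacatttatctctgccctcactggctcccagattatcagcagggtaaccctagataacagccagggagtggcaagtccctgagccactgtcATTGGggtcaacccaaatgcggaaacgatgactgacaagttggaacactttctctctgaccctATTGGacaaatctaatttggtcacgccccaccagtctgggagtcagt
Cox7a2 (chr9:79759879-79760103, minus strand): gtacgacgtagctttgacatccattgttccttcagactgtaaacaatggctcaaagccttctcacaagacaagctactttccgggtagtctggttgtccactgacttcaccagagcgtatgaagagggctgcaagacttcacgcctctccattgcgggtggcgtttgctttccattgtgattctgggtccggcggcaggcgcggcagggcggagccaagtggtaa
Cox8b (chr7:140900447-140900696, minus strand): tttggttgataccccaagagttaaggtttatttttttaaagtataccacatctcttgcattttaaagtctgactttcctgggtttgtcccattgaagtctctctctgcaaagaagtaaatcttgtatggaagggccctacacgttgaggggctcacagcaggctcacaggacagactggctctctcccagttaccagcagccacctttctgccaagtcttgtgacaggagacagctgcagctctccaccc
Cox8a (chr19:7217617-7217866, minus strand): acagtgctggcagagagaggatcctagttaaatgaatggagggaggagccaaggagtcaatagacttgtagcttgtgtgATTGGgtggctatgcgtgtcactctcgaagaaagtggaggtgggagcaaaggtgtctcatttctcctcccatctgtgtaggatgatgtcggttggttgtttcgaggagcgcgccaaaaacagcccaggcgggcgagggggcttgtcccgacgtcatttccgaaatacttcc
Cox6b2 (chr7:4753095-4753344, minus strand): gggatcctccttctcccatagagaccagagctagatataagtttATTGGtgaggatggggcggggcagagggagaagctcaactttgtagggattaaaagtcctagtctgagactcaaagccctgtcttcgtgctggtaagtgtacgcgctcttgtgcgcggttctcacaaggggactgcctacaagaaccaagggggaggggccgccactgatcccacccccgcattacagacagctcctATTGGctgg
Cox6b1 (chr7:30626152-30626364, minus strand): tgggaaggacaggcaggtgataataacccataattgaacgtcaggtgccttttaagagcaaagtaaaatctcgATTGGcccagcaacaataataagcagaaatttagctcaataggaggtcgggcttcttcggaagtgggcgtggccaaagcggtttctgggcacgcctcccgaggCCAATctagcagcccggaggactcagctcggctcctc
Cox6a1 (chr5:115348982-115349208, minus strand): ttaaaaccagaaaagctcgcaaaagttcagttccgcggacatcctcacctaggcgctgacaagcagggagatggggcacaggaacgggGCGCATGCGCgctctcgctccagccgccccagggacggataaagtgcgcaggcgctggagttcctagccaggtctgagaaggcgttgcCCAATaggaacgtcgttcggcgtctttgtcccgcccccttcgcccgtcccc
The Cox6a1 window holds the palindrome GCGCATGCGC, in which the NRF1 letters read on both strands, and a CCAAT. The muscle form Cox7a1 has CCAAT on the opposite strand at 2 places, while none of the searched letters occurs in the printed windows of Cox7a2 and Cox8b. Both members of the Cox6b pair hold CCAAT letters at 2 places, and Cox8a at 1.

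Across the 74 members, in windows of 300 bases (250 before the start and 50 after, both strands), the NRF1 letters GCGCATGC occurred in 12 (16.2%), against 4.64% of 12992 measured genes and 2.80% of all 27025 promoters in the table. NRF1 is a transcription factor of respiratory genes. The YY1 letters AAGATGGCG occurred in 7 members (9.46%), against 2.66% of measured genes and 1.5% of all promoters. The letters CCGGAAG, bound by ETS factors such as GABPA, occurred in 16 (21.6%, against 15.5% and 9.12%), and CCAAT in 33 (44.6%, against 38.2% and 37.9%). The end of CCGGAAG can run into the start of AAGATGGCG over 3 letters, and a promoter with both counts under each. Of the 51 members that fell and had an entry, 9 held the NRF1 letters (17.6%), 5 the YY1 letters (9.80%), 10 the ETS letters (19.6%) and 20 CCAAT (39.2%). The members that fell and held the NRF1 letters were Ndufa6, Ndufaf4, Ndufa11, Sdhb, Uqcrc1, Uqcr11, Cox6a1, Atp5g2 and Atp5l, and those with the YY1 letters were Ndufs7, Ndufa9, Ndufs4, Atp5sl and Atp5j2. A match is a description of letters, not a binding site.

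In LSEC most estimates were also below 0, but 1 member passed the test. Of 88 members 1 fell and none rose, against 2.86% and 5.24% of all genes, and 14 had an unadjusted p under 0.05. The median was -0.28 (-0.14 by total reads, where none was called), 81 members had a negative estimate, and all NASH libraries lay below all chow libraries for 13 members, against 15.4% of all genes. Medians by complex were -0.38 for complex I, -0.15 for II, -0.23 for III, -0.21 for IV and -0.28 for V. With edgeR on the recovered reads none was called (16 with an unadjusted p under 0.05), and with DESeq2 3 were lower and 1 higher.

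Cox6a1, the common form described above, was the member that fell in LSEC. It had 2946, 4342 and 3422 normalized reads in chow and 2127, 2429 and 1872 in NASH LSEC, and no NASH library reached the lowest chow library. The fold change was -0.73 (SE 0.17, adjusted p = 0.0483), close to the threshold. It was lost with edgeR (0.0520) and in every fit without 1 library other than LSEC chow 1 (0.0816 to 0.161). The authors' deposited table called 4 members, Cox6a1 (-0.74, adjusted p = 0.0045), Ndufv3 (-0.50, 0.0175) and Atp5h (-0.66, 0.0194) lower and Ndufa4l2 (1.34, 0.0119) higher.

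Those other members lay near the threshold in limma too. Ndufv3, an accessory subunit of the NADH-binding module, had 1196, 1506 and 1307 normalized reads in chow and 981, 990 and 873 in NASH LSEC, a fold change of -0.49 (adjusted p = 0.0653). For Ndufa4l2 the values were 29.3, 32.6 and 57.3 in chow and 122, 111 and 69.7 in NASH, a fold change of 1.34 (adjusted p = 0.0683), with no overlap as in liver. Atp5h was at -0.66 (adjusted p = 0.0737). Cox4i2 was at 1.78 (adjusted p = 0.145), and Cox6a2, which rose in liver, had 20.9, 2.18 and 21.5 in chow and 18.4, 28.0 and 18.6 in NASH LSEC, with groups that overlapped.

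Chow LSEC libraries were spread more widely than the mean sums of the diets lay apart. Summed member reads were 78361, 115732 and 99476 normalized reads in chow and 83224, 90609 and 72900 in NASH, and the shares of all reads were 0.400%, 0.574% and 0.505% in chow and 0.459%, 0.508% and 0.404% in NASH (95% Wilson intervals at most 0.00688 points wide). Among 78 members with a mean of at least 50, LSEC chow 1 was the lowest chow library for 77 and LSEC chow 2 the highest for 72. Without LSEC chow 1 the median was -0.45, 2 members fell (Cox6a1 and Ndufb9) and 43 had an unadjusted p under 0.05. Without LSEC chow 2 the median was -0.15 with 5 such members, and without LSEC NASH 3 it was -0.18 with 6.

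Transcript length moved with some of these library differences. Respiratory chain messages are short, and in LSEC the 52 members under 1 kb had a median of -0.37 against -0.18 for the 36 longer ones. Over all genes with a mean of at least 50 the medians were -0.20 under 1 kb and -0.04 above. LSEC chow 1 was lower for short genes in general (median -0.26 against the group's median library). LSEC chow 2 was higher (0.26) and LSEC NASH 3 lower (-0.22), and long genes were at 0 in each of these libraries. Among members, LSEC chow 1 was as low for the long ones (-0.37) as for the short ones (-0.36). Short and long members were at 0.34 and 0.12 in LSEC chow 2 and at -0.31 and -0.17 in LSEC NASH 3. In liver the members under 1 kb were at -0.38 and the longer ones at -0.42. NASH liver 1 was higher for short genes in general (0.12, with long genes at 0), with short members at 0.29 and long members at 0.14. Chow liver 3 was lower (-0.08 for short genes, -0.13 for short members and -0.08 for long members). In NASH liver 3 short genes were at 0, short members at -0.08 and long members at -0.16. Across members, fold change and length had a Spearman rho of 0.43 in LSEC (n = 78) and -0.09 in liver (n = 85), points that share their libraries. The part of length in the members' values was not tested in either tissue.

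LSEC libraries were checked against cell markers. Sinusoidal endothelial markers summed to 495000 to 522623 normalized reads in chow and 324625 to 350899 in NASH, and of 10 measured 3 fell and 1 rose. Hepatocyte markers were present in every LSEC library, with summed levels of 7012 to 83647 in chow and 38558 to 82146 in NASH, a median of 1.64 and none called. Kupffer cell (5 of 10), recruited macrophage (5 of 10) and stellate cell (4 of 10) markers rose. Their part in the members' values was not tested.

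Subunits encoded in mitochondrial DNA were measured in LSEC, where 8 of 13 had a value, and none of the 13 was among the measured genes in liver. They took 3.35% to 5.22% of each library's reads. None was called by limma or edgeR (3 had an unadjusted p under 0.05, and DESeq2 called 2), and their median was -0.40 (-0.26 by total reads). The complex I subunit mt-Nd2 had 92055, 134266 and 101063 normalized reads in chow and 68052, 73199 and 70092 in NASH LSEC, a fold change of -0.61 (adjusted p = 0.117) with no overlap. Values were -0.54 for mt-Nd1 (adjusted p = 0.188), -0.49 for mt-Nd4, -0.41 for mt-Nd6, -0.35 for mt-Nd5, -0.39 for the complex III subunit mt-Cytb and -0.28 for the complex IV subunit mt-Co1. The authors' deposited table called mt-Nd1 (-0.56, adjusted p = 0.0291) and mt-Nd2 (-0.63, adjusted p = 0.0073) lower. mt-Nd3 had 0 to 4.09 normalized reads. LSEC chow 2, the library with the highest nuclear members, was also the highest library for 7 of these 8 genes, mt-Nd3 excepted.

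The effect of NASH was then compared between tissues by subtracting the LSEC log2 fold change from that of liver. Of 88 members 2 differed, against 19.5% of the 15766 genes measured in both tables, and the median difference was -0.06. On the deposited scale the estimate was negative in both tissues for 80 members, and the matching count over all genes was not taken. In each tissue alone 8083 of 16703 liver genes and 8133 of 16273 LSEC genes were negative. By total reads 36 of 89 members were negative in liver and 64 of 88 in LSEC. Cox6b2 fell in liver, while in LSEC it had 6.27, 2.18 and 5.12 normalized reads in chow and 10.6, 15.9 and 11.2 in NASH, so that each tissue's groups stood apart in opposite directions. The difference was -2.75 (95% interval -4.0 to -1.51, adjusted p = 0.00494), and it was called in every alternative that tested the gene. The LSEC values rest on 13 reads in chow and 40 in NASH in all. With 10 added before the log the difference was -1.67. Atp5sl differed by -0.60 (-1.0 to -0.19, adjusted p = 0.0394), with 355, 419 and 401 normalized reads in chow LSEC and 388, 344 and 314 in NASH LSEC, groups that overlapped.

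The Atp5sl difference was less stable. It was lost with an edgeR interaction term (adjusted p = 0.0639), by total reads (-0.32, 0.242) and in 10 of 12 fits without 1 library (0.0510 to 0.116). For other members a difference in call between tissues is not a difference in effect: Ndufs7 fell in liver by 0.81 and was at -0.45 in LSEC (adjusted p = 0.357), and its difference was not called. By total reads Cox6a1, Ndufaf7 and Ndufv3 were called relatively higher in liver, with Cox6b2 lower. Without LSEC chow 2 Cox6a2 was called as well, 2.31 higher in liver.

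**Figure D4:**
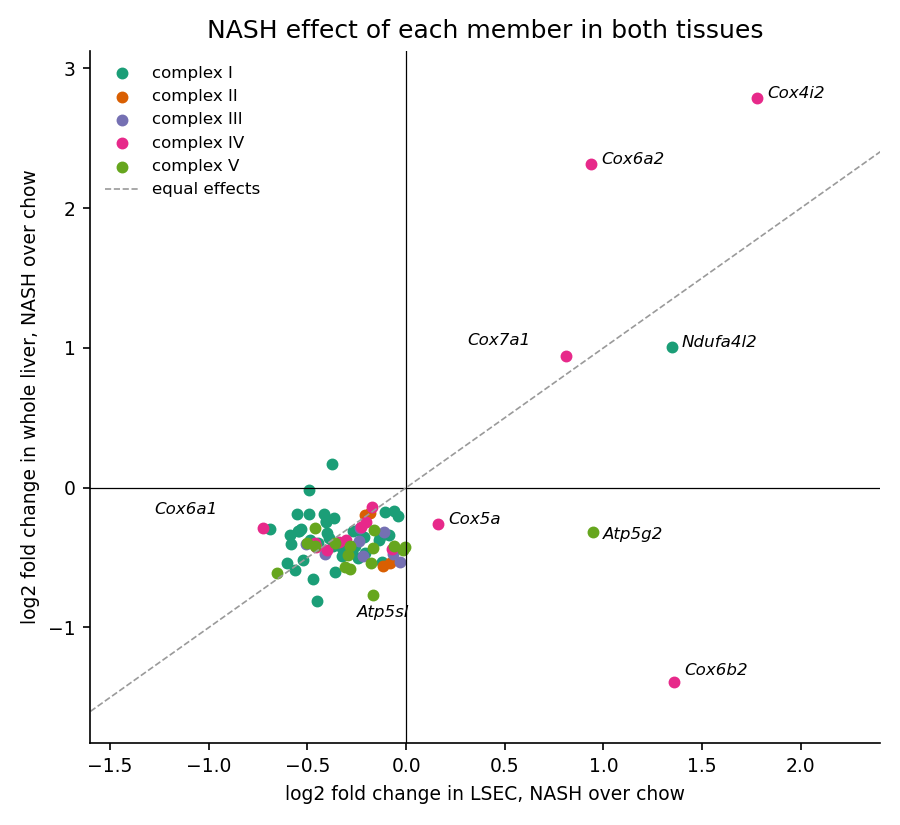
Each point is 1 of 88 members, with its log2 fold change in LSEC (horizontal axis) and in whole liver (vertical axis) under the deposited scaling, coloured by complex, and the dashed line marks equal effects. Most members sit at the lower left, where 80 of 88 are negative in both tissues. Cox6b2, Atp5g2 (0.94 in LSEC, -0.32 in liver) and Cox5a (0.16, -0.26) are positive in LSEC and negative in liver, with Cox6b2 at the bottom right. The LSEC value of Atp5g2 rests on 9 reads in chow and 22 in NASH and was not called.

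Other genes of the pathway were taken from lists chosen with earlier results of these data known. Of 199 measured in liver 89 fell (44.7%) and 11 rose (5.53%), against 21.0% and 25.0% of all liver genes. Among abundant liver genes, averaging 1000 normalized reads or more, 41.5% fell and 13.5% rose, so the lists' share of falls lay close to theirs. The lists were not matched for level, and its part in their shares was not tested. By total reads 7 list genes fell and 65 rose, against 5.41% and 47.2% of all liver genes. Of the genes outside the rule that act in the chain, Cyc1, the cytochrome c1 of complex III, fell by 0.56 (adjusted p = 0.0019) and the ATP synthase component Usmg5 by 0.57. Atpif1, which blocks ATP hydrolysis by complex V, had 577, 654 and 516 normalized reads in chow and 1190, 1060 and 1297 in NASH livers and rose by 1.02 (adjusted p = 0.000162, 1.44 by total reads), opposite to the 15 complex V members that fell.

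Carriers of electrons to and within the chain were divided. Of 15 genes for cytochrome c and coenzyme Q synthesis 4 fell and 1 rose, with a median of -0.18 (0.23 by total reads), led by cytochrome c itself (Cycs, -0.64, adjusted p = 0.000806). Of 8 other electron donors to coenzyme Q 4 fell and 1 rose. Etfdh, which feeds electrons from fatty acid oxidation into the chain, had 33032, 31807 and 29287 normalized reads in chow and 15774, 19294 and 16402 in NASH livers and fell by 0.87, and its partner Etfb fell by 0.88. Both also fell by total reads (-0.46 and -0.47). The glycerol-3-phosphate dehydrogenase Gpd2 rose by 0.53.

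Regulators of mitochondrial transcription and DNA upkeep were lower on the deposited scale, with 16 of 19 down, 1 up and a median of -0.45 (-0.04 by total reads, where 3 rose and none fell). They included the helicase Peo1 (-0.59), the transcription factor Tfb2m (-0.70), the packaging factor Tfam (-0.54) and the coactivator Ppargc1a (-0.78), and Mterf2 rose by 0.63. In the citric acid cycle 10 of 13 fell and 2 rose, with a median of -0.48 (-0.07 by total reads). Fumarase, Fh1, had 34048, 30250 and 18111 normalized reads in chow and 9342, 8985 and 7074 in NASH livers and fell by 1.66 (adjusted p = 0.000233, -1.24 by total reads), with chow liver 3 well under the other chow livers. Sucla2 fell by 0.73, and citrate synthase Cs and Suclg2 rose by 0.35 and 0.42.

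Mitochondrial ribosomal proteins, which make the subunits encoded in mitochondrial DNA, had 31 of 77 down and none up, with a median of -0.22. By total reads 2 of the 77 fell and 25 rose (median 0.20). Over all liver genes 21.0% fell on the deposited scale and 47.2% rose by total reads, for comparison with each list here. Mrpl15 fell by 1.08 and Mrpl47 by 0.68. Of 21 complex IV assembly factors 9 fell, among them Lrpprc (-0.57) and Fastkd1 (-0.58), and by total reads none fell and 7 rose. Among assembly factors of the other complexes 3 of 9 fell for complex I (Foxred1, -0.41, Ecsit, -0.40, and Tmem126b, -0.28) and 1 of 6 for complex III (Uqcc1, -0.31). None of 4 for complex II and of 3 for complex V was called by limma, edgeR or DESeq2, with 0 at an unadjusted p under 0.05, and by total reads 3, 3, 2 and 1 of the factors for complexes I, II, III and V rose. Of 11 supercomplex and cristae genes 5 fell, Phb2 (-0.62) and Opa1 (-0.52) among them, and 2 rose (Chchd6, 0.93, and Apool, 0.30).

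Among membrane carriers both directions were seen. Of 9 carriers, uncoupling proteins and porins 3 rose and 4 fell. Ucp3, an uncoupling protein known from muscle, had 0, 1.08 and 0 normalized reads in chow and 45.9, 56.3 and 61.9 in NASH livers, 1 read against 183, a ratio of 151 (95% interval 26.8 to 5995, counting error only). Ucp2 rose by 1.28 and Slc25a4 by 1.11, and the phosphate carrier Slc25a3 (-0.50) and the porins Vdac1, Vdac2 and Vdac3 (-0.32, -0.27 and -0.33) fell. All 3 rises were also called by total reads, where none of the 9 fell. In LSEC none of the 206 pathway list genes measured passed the test in limma, 18 had an unadjusted p under 0.05, and edgeR called 1 and DESeq2 8.

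**Figure D5:**
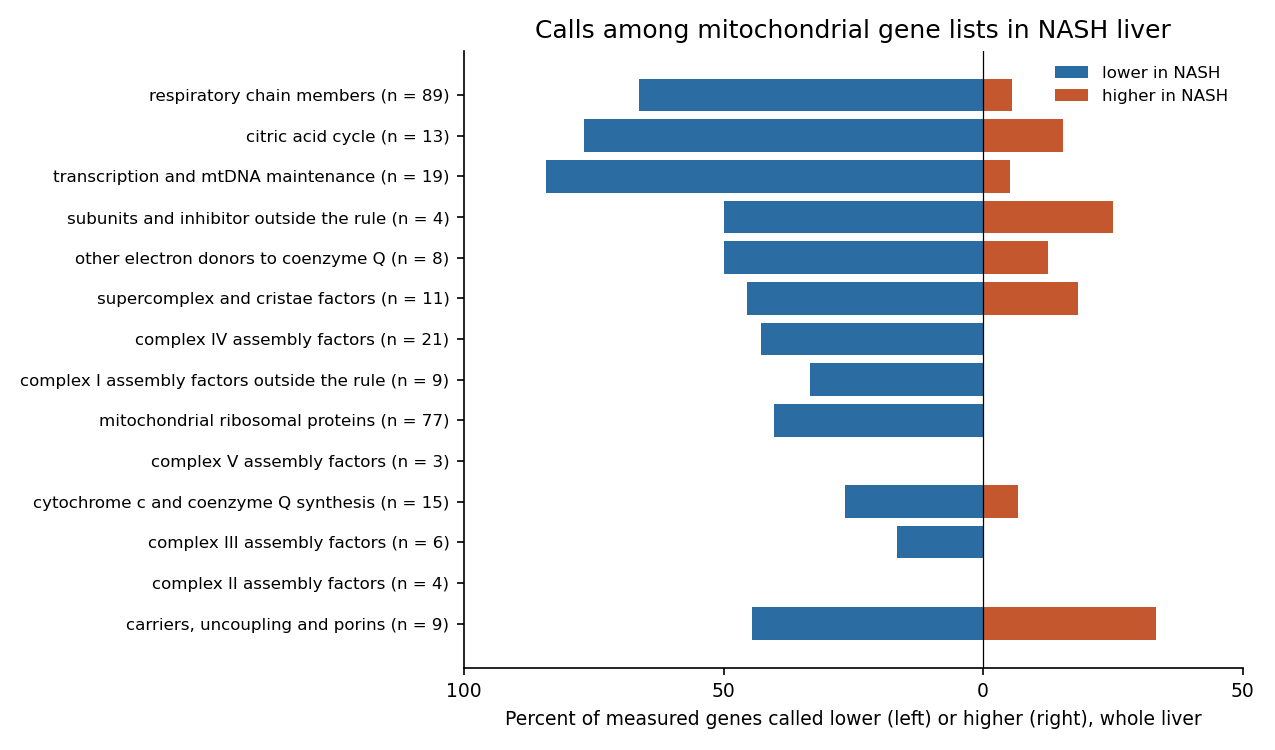
Bars give the percent of measured genes in each list called lower (blue, to the left) or higher (orange, to the right) in NASH liver under the deposited scaling, with the number of genes measured in brackets and the respiratory chain members at the top. Transcription and mtDNA maintenance (16 of 19) and the citric acid cycle (10 of 13) have the longest blue bars, and orange bars are longest for carriers and uncoupling proteins (3 of 9).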

How the data were processed

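RNA-seq was done on 6 whole liver and 6 LSEC libraries. The submitters' processing notes name FastQC, STAR, HTSeq, DESeq2, Seurat and build mm10. Their versions and run settings were not given in the sources used here. Each tissue has 1 table, in which the authors deposited a read signal normalized per library, log2 fold changes and p-values. Dividing each library's signal by its step gave whole reads for 100% of values within a tolerance of 0.01. Each tissue's file held 22 names changed to dates and 2 rows with a repeated name, none of them a member.

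The main fit, for each tissue alone and without a filter, was limma-trend (limma 3.58.1 in R 4.3.3) applied to log2(normalized reads + 1). The design allowed edgeR for counts, and the deposited unit called for limma. The tables were normalized separately, so tissues were compared by the difference of fold changes over its standard error, two-sided, with Welch-Satterthwaite degrees of freedom and Benjamini-Hochberg adjustment over 15766 genes. Alternatives were pseudocounts of 0.1 and 10, a minimum mean of 10, total-read scaling, centring, a threshold of 0.01, edgeR (4.0.16), DESeq2 (1.42.0), a replicate block in liver and leaving out each library. The steps were also run on simulated data, with fold changes larger than those of most members and no shift in scaling. That run therefore cannot judge the choice of scaling or changes as small as those of most members.

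The members and lists were chosen with earlier results of these data known. Named were, per tissue and complex, the 3 members with the smallest adjusted p and the highest and lowest fold change at a mean of at least 50, all isoform family members, the 5 members with the smallest p between tissues and up to 2 genes per list. Other genes named were chosen after their values were seen. Coordinates and lengths are from GENCODE M21, which matched 98.96% of gene names and all 89 members. LSEC columns carry no replicate number, and LSEC numbers are positions only. The kit named for liver does not mark strand.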

Additional observations from a re-analysis of the deposited data

Results flagged for a closer look

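A test of the difference itself called unequal effects of NASH in liver and LSEC (liver minus LSEC log2 fold change, adjusted over 15766 genes) for 2 members, Cox6b2 (-2.75, adjusted p = 0.00494) and Atp5sl (-0.60, 0.0394).

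The same test called 13 of the pathway genes named by rule, where 19.5% of all genes were called. Those genes had been picked for small adjusted p-values in liver or LSEC, from the same fold changes that are subtracted here. Their number is therefore not a rate for the pathway. The effect was more positive in liver for the nucleotide carrier Slc25a4 (1.71, adjusted p = 0.000103), the uncoupling protein Ucp2 (1.38, 0.00045) and the ATP synthase inhibitor Atpif1 (1.35, 0.00775). It was more negative in liver for the citric acid cycle enzyme Fh1 (-1.58, 0.00101), for the electron donors Etfdh (-1.04, 0.00209), Etfb (-0.88, 0.0116) and Chdh (-2.11, 0.0112), and for the ribosomal protein Mrpl15 (-1.05, 0.00629). It was also more negative for the RNA-binding factor Lrpprc (-0.62, 0.0194), the inner membrane genes Phb2 (-0.65, 0.0210) and Opa1 (-0.57, 0.0385), the helicase Peo1 (-1.03, 0.0449) and the nuclear receptor Ppara (-2.63, 0.0236). In LSEC Ppara had 35.5, 87.0 and 24.6 normalized reads in chow and 128, 143 and 441 in NASH, beside 11003, 61571 and 5800 and 27790, 34837 and 54248 for the hepatocyte gene Alb, whose part was not tested.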

How the results depend on the processing

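In liver, 59 members lower and 5 higher became 3 and 12 with scaling by total reads, 31 and 1 at an adjusted p under 0.01, and 33 to 73 and 2 to 5 when a library was left out, and the other settings without a block stayed within 1.5 times (55 to 59 lower). Signs turned from negative to positive by total reads for 47 of 89 members in liver and 17 of 88 in LSEC. Among the members named by the rule for named genes they reversed in liver for Atp5g2 (0.10), Atp5k (0.13), Cox4i1 (0.041), Cox5a (0.16), Cox6a1 (0.13), Cox6b1 (0.17), Cox7a2l (0.28), Cox8a (0.13), Ndufa4 (0.095), Ndufv3 (0.23), Sdha (0.22), Sdhc (0.23), Uqcr11 (0.012) and Uqcrq (0.12), and in LSEC for Atp5a1 (0.13), Atp5f1 (0.13), Cox7b (0.068), Ndufs3 (0.019), Sdhb (0.056), Sdhd (0.020), Uqcrfs1 (0.11) and Uqcrh (0.075). In LSEC, 1 lower and 0 higher became 3 and 1 with DESeq2, 0 lower with centring, edgeR, a pseudocount of 0.1, total reads or a threshold of 0.01, and 0 to 2 lower when a library was left out. Centring put Atp5f1 at 0.0013, and fold changes in LSEC changed sign among the fits that left out a library for Atp5a1 (-0.11 to 0.043), Atp5f1 (-0.19 to 0.14), Atp5g1 (-0.34 to 0.087), Cox5a (-0.025 to 0.33), Cox7b (-0.31 to 0.22), Sdhb (-0.24 to 0.047), Uqcrfs1 (-0.21 to 0.089), Uqcrh (-0.23 to 0.092) and Uqcrq (-0.40 to 0.023). The 2 members that differed between tissues became 1 with an edgeR interaction or a minimum mean of 10 (which drops Cox6b2), 5 with a normal distribution, 4 by total reads and 1 or 2 when a library was left out. Where not built into the setting, the cause was not tested. Cox4i2, Cox6a2, Cox8b and, in LSEC, Cox6b2 and Atp5g2 rest on few reads, which limits their precision.

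Deviations from the group means in liver libraries with the same replicate number had correlations of -0.01, -0.02 and 0.10. Those of differently numbered libraries ran from -0.09 to 0.09. With 3 libraries in each group these values cannot settle whether the numbers pair the libraries. With the number as a replicate block 64 members were lower and 5 higher. In LSEC no paired analysis was possible because the columns carry no replicate numbers.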
